A study of Homo sapiens with 12 samples.

Results

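Oxidative phosphorylation is the only pathway of a human cell whose protein complexes are built from 2 genomes. The genes described here are those of both genomes in HEK293 cells, a line derived from human embryonic kidney. They comprise the RNAs encoded on mitochondrial DNA (chromosome M) and the nuclear genes for structural subunits of complexes I to V. Members were chosen by symbol. On chromosome M these were all symbols that begin with MT-. In the nucleus they were protein-coding genes that begin with NDUFA, NDUFB, NDUFC, NDUFS, NDUFV, SDHA to SDHD, UQCR, CYC1, COX4 to COX8 or ATP5. Assembly factors and the inhibitor of the ATP synthase were left out. Of 127 such genes in the annotation, 111 were among the 26058 genes listed. They were 13 mitochondrial mRNAs, 2 mitochondrial rRNAs, 12 of the 22 mitochondrial tRNAs and 84 nuclear subunit genes, of which 37 belong to complex I, 4 to complex II, 10 to complex III, 15 to complex IV and 18 to complex V. All 111 had a mean RPKM (reads per kilobase of gene, scaled to library depth) of at least 0.5 over the libraries and so entered the test.

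The 12 libraries came from wild-type cells (WT) and from cells in which CRISPR had been used against the genes of both AMPK catalytic subunits (AMPK KO), 6 libraries from each line. Before treatment all cells spent 24 h in low serum. Each line then had 3 treatments with 2 replicates (numbers 2 and 3): the solvent DMSO without growth factor, DMSO for 20 min and then EGF for another 30 min (DMSO+EGF), and 25 µM cordycepin for 20 min and then EGF for another 30 min (cordycepin+EGF). Total RNA was depleted of ribosomal RNA before sequencing. The number of clones behind the AMPK KO line was not given in the sources used here, and sources differed on the unit of the EGF concentration.

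The 5 complexes sit in the inner mitochondrial membrane, where electron transfer is coupled to proton pumping and ATP synthesis. Complex I takes electrons from NADH, complex II from succinate, complex III passes them to cytochrome c, complex IV passes them to oxygen, and complex V makes ATP from the proton gradient. Chromosome M is transcribed from both strands as long precursors, which are cut into mRNAs, rRNAs and tRNAs. In many places a tRNA lies directly between neighbouring mRNAs, so that excision of the tRNA frees the mRNA ends. Mitochondrial mRNAs receive short tails of adenosine, and several stop codons are complete only after these adenosines have been added. Cordycepin is 3′-deoxyadenosine, an adenosine analogue without the hydroxyl group from which an RNA chain grows.

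Sequences of 8 of the listed tRNA genes are shown because reads in the first 6 were lower with cordycepin in both lines, whereas MT-TS1 and MT-TP moved little or differed between lines. They were read from GRCh38 chromosome M in the direction of the tRNA, with the anticodon in capitals.
MT-TD (aspartate, chrM:7518-7585, plus strand): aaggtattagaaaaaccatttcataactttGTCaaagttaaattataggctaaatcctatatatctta
MT-TR (arginine, chrM:10405-10469, plus strand): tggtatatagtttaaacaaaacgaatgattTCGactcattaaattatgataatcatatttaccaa
MT-TG (glycine, chrM:9991-10058, plus strand): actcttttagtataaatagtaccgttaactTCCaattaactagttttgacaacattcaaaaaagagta
MT-TH (histidine, chrM:12138-12206, plus strand): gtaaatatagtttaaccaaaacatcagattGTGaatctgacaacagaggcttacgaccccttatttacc
MT-TA (alanine, chrM:5587-5655, minus strand): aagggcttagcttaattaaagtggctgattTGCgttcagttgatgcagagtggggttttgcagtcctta
MT-TC (cysteine, chrM:5761-5826, minus strand): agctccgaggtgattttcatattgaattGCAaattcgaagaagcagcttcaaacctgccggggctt
MT-TS1 (serine of UCN codons, chrM:7446-7514, minus strand): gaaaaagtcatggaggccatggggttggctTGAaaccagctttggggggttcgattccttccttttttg
MT-TP (proline, chrM:15956-16023, minus strand): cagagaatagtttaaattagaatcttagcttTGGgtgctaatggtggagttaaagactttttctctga
No base separates MT-TD from MT-CO2, MT-TG from MT-CO3 and MT-ND3, MT-TR from MT-ND3 and MT-ND4L, or MT-TH from MT-ND4. MT-TA, MT-TN, MT-TC and MT-TY lie together between MT-ND2 and MT-CO1 on the minus strand, and MT-TY and MT-TC share 1 base. The libraries were stranded, but the strand setting of the counting was not given in the sources used here, so reads from the opposite strand cannot be told apart from reads of these tRNAs. The 12 listed tRNA genes are 59 to 73 bases long and the paired reads 150 bases. Reads of uncut precursor RNA and of cut tRNA therefore cannot be told apart either.

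Reads on listed genes ran from 4013038 to 26475402 per library, and the shallowest library was replicate 3 of the WT DMSO group. The replicates of WT DMSO also correlated least (r = 0.918 across genes, against 0.961 to 0.977 in the other groups). The AMPK catalytic subunit gene PRKAA1 had 21.9 and 15.4 RPKM in WT DMSO and 7.62 and 7.37 RPKM in AMPK KO DMSO (log2 difference -1.26, SE 0.167, limma adjusted p = 0.0228). PRKAA2 had 12.1 and 7.97 RPKM in WT DMSO and 5.59 and 6.08 RPKM in AMPK KO DMSO (log2 difference -0.73, SE 0.202, limma adjusted p = 0.112). Of markers of HEK293 cells, the neurofilament genes NEFL and INA ranged from 12.4 to 33.7 and from 11.9 to 20.9 RPKM over the libraries, while NEFM, PAX2 and LHX1 stayed below 0.947 RPKM or reached that value. Of 7 markers of other cell types, PTPRC did not exceed 0.061 RPKM and the other 6 were not among the listed genes.

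The mitochondrial mRNAs stood far above the nuclear subunit mRNAs. On the RPKM scale, which is per length, the median of the 12-library means was 1527 over the 13 mitochondrial mRNAs and 15.1 over the 84 nuclear subunits. MT-CO1, the catalytic subunit of complex IV, had a mean of 7409 RPKM and ranked 2nd among all listed genes. MT-CO2 (4240 RPKM), MT-ATP6 (2994 RPKM) and MT-CO3 (2773 RPKM) followed, and the 7 complex I mRNAs had means from 732 RPKM (MT-ND3) to 1928 RPKM (MT-ND4). The only mitochondrial subunit of complex III, MT-CYB, had 1319 RPKM, and MT-ATP8 had 1052 RPKM. The ranges over libraries overlapped between neighbours in this order: MT-CO1 ranged from 4833 to 9931 RPKM and MT-CO2 from 2854 to 6695 RPKM. MT-ND6, the only one of the 13 encoded on the minus strand, had 1527 RPKM.

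Among nuclear subunits the range of mean levels was 320-fold. The highest was ATP5F1B, the catalytic beta subunit of the ATP synthase, with 306 RPKM, and the lowest was ATP5MGL, a paralogue of ATP5MG, with 0.956 RPKM. In complex I the range ran from NDUFA9 (1.80 RPKM) to NDUFS5 (69.3 RPKM). In complex II it ran from SDHA (5.75 RPKM) to SDHB (41.4 RPKM). In complex III it ran from UQCRB (4.22 RPKM) to UQCRFS1, the Rieske iron-sulphur protein (58.2 RPKM), and in complex IV from COX6B2 (1.26 RPKM) to COX6B1 (132 RPKM). The median levels of nuclear subunits were 10.4 RPKM for complex I, 22.6 for complex II, 25.7 for complex III, 29.9 for complex IV and 19.6 for complex V. RPKM divides by the summed exons of all annotated transcripts, and these lengths were 10391 bases for NDUFA9 and 12600 bases for UQCRB in GENCODE 44.

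Tissue-restricted paralogues were low. COX4I2, COX6A2, COX7B2 and COX8C, the forms of lung, muscle and testis, were not among the listed genes. NDUFA4L2 had a mean of 4.07 RPKM against 7.34 RPKM for NDUFA4, and COX7A1 had 5.69 RPKM against 29.9 RPKM for COX7A2. These ratios depend on the exon lengths used. In WT DMSO+EGF NDUFA4L2 had 103 and 82 reads against 769 and 361 for NDUFA4. In AMPK KO cordycepin+EGF it had 415 and 340 reads against 323 and 617. ATP5MG had 4.67 RPKM.

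In WT the level of mitochondrial mRNA differed between replicates as much as between treatments. Chromosome M took between 6.03% and 14.9% of summed RPKM, or 1.97% to 4.52% of recovered reads. Its share of RPKM was 9.54% and 14.9% in WT DMSO, 12.3% and 8.42% in WT DMSO+EGF, and 11.95% and 6.03% in WT cordycepin+EGF. It was 8.69% and 6.73% in AMPK KO DMSO, 8.95% and 11.4% in AMPK KO DMSO+EGF, and 12.75% and 11.7% in AMPK KO cordycepin+EGF. The lowest and the highest share were both in WT libraries, and in WT the groups overlapped in every pair of treatments. In AMPK KO no pair of treatments overlapped, with DMSO lowest and cordycepin+EGF highest. Between replicates all 13 mRNAs differed in the same direction in 4 of 6 groups: the 3 WT groups and AMPK KO DMSO+EGF. In WT DMSO+EGF, for example, MT-CO1 had 9488 and 6285 RPKM and MT-ND4 had 2229 and 1595 RPKM. In AMPK KO DMSO 6 mRNAs were higher and 7 lower in replicate 3 than in replicate 2, and in AMPK KO cordycepin+EGF 7 were higher and 6 lower. The ratio of summed mitochondrial mRNA to summed nuclear subunit RPKM ran from 7.65 to 20.8, with both ends again in WT.

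**Figure D1:**
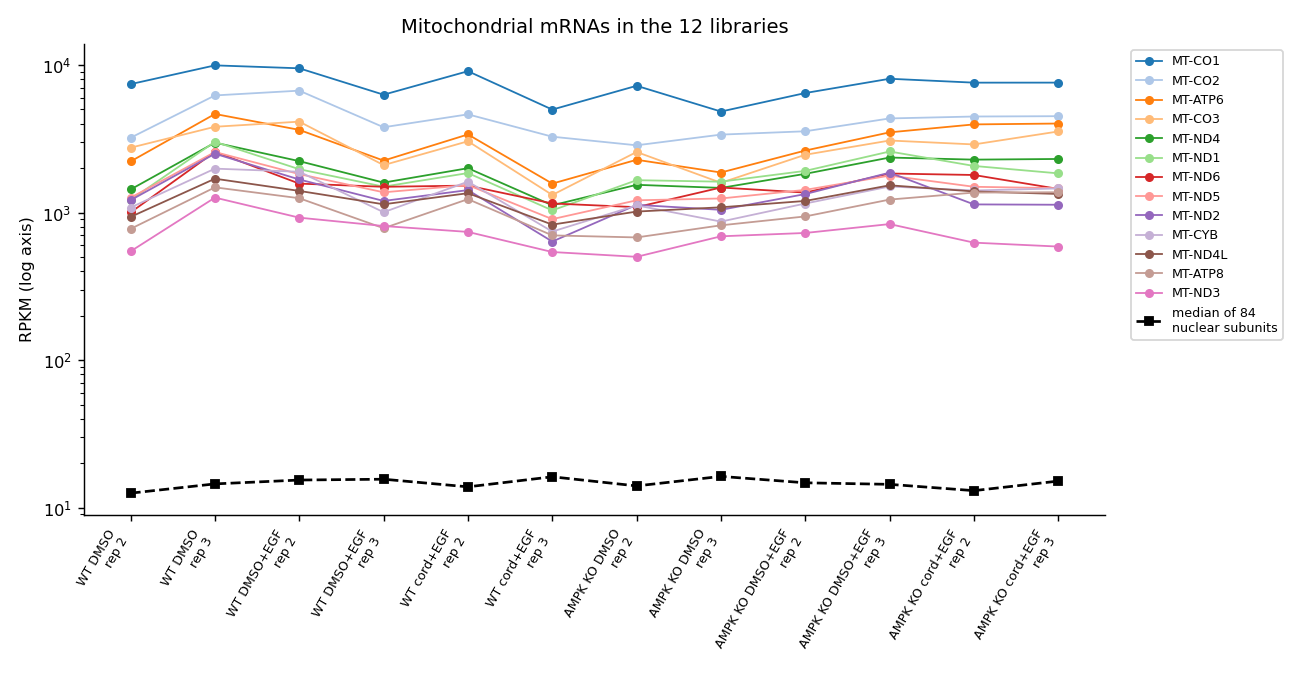
RPKM (log axis) of each of the 13 mitochondrial mRNAs in each of the 12 libraries (coloured lines and points), with the median of the 84 nuclear subunits as black squares. All 13 lines move the same way between the replicates of 4 of 6 groups but not of AMPK KO DMSO or AMPK KO cordycepin+EGF, and MT-CO1 (4833 to 9931 RPKM) is the highest in every library.

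The question of whether cordycepin acts on these genes was addressed by comparing cordycepin+EGF with DMSO+EGF in each line. Reads in the tRNA genes of chromosome M were lower with cordycepin. On the scale of log2(scaled RPKM + 0.5) the median difference over the 12 tRNAs was -1.06 in WT and -1.32 in AMPK KO, with 11 of 12 below 0 in WT and 12 of 12 in AMPK KO. Over all 22067 genes tested the medians were 0.03 and 0.06. Over the 13 mitochondrial mRNAs they were -0.28 and 0.12, and over the nuclear subunits -0.02 and -0.05. The last of these turned to 0.12 with equal RPKM totals over nuclear genes and to 0.07 with the upper quartile of nuclear protein-coding genes, where the medians of all genes were 0.203 and 0.156. By limma with Benjamini-Hochberg adjustment over all genes tested, 1 of 111 members was called in AMPK KO (adjusted p below 0.05), where 0.471% of all genes were, and 0 of 111 in WT, where 0.00453% of all genes were. At an unadjusted p below 0.05, 22 members passed in AMPK KO (7 higher, 15 lower), or 19.8% against 21.8% of all genes, and 14 in WT (4 higher, 10 lower), or 12.6% against 16.0% of all genes.

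The member called was MT-TA, the tRNA gene for alanine. It had 12.6 and 13.6 RPKM in AMPK KO DMSO+EGF and 1.98 and 1.53 RPKM in AMPK KO cordycepin+EGF (log2 difference -2.56, SE 0.359, limma adjusted p = 0.0332). In WT it had 6.86 and 12.3 RPKM without cordycepin and 1.01 and 1.81 RPKM with it (log2 difference -2.35, limma adjusted p = 0.177). The libraries of the groups compared did not overlap in either line. These values rest on few reads: 12 and 13 reads became 2 and 2 in AMPK KO, a ratio per scaled library of 0.136 (exact 95% interval 0.0344 to 0.394, counting error only), and 12 and 14 became 2 and 2 in WT, a ratio of 0.148 (0.0375 to 0.427). The call in AMPK KO held in 11 of 14 alternatives (limma adjusted p = 0.0159 to 0.101) and was lost when replicates were blocked by line, with voom on recovered reads and with only the groups compared. With 1 library left out it held in 2 of 12 cases, without either WT DMSO library, and ranged from 0.0208 to 0.236.

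MT-TD, the tRNA for aspartate, had the largest differences in both lines. It had 45.2 and 13.4 RPKM in WT DMSO+EGF and 2.55 and 0.917 RPKM in WT cordycepin+EGF. In AMPK KO it had 18.1 and 28.8 RPKM without cordycepin and 0 and 1.55 RPKM with it. Every library with cordycepin lay below every library without it, including those of DMSO, which had 13.8, 32.9, 26.8 and 17 RPKM. In reads, 78 and 15 became 5 and 1 in WT, a ratio per scaled library of 0.0621 (exact 95% interval 0.0222 to 0.14), and 17 and 27 became 0 and 2 in AMPK KO, a ratio of 0.0387 (0.00454 to 0.148). MT-CO2, the mRNA that begins at the next base, had log2 differences of -0.33 in WT and 0.24 in AMPK KO.

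The other plus-strand tRNAs were lower too. MT-TR (arginine) had 27.9 and 33.7 RPKM in WT DMSO+EGF and 8 and 0.959 RPKM in WT cordycepin+EGF, and 28.9 and 40.1 against 9.45 and 9.75 RPKM in AMPK KO. MT-TH (histidine), with the most reads of these, had 53.7 and 55.5 RPKM without and 31.7 and 28 RPKM with cordycepin in WT, and 72.3 and 96.6 against 38.6 and 32.9 RPKM in AMPK KO. No pair of groups overlapped for either gene. MT-TG (glycine) had 5.22 and 16.1 RPKM without and 4.08 and 2.75 RPKM with cordycepin in WT, and 5.32 and 10.6 against 0 and 4.66 RPKM in AMPK KO. MT-TS2, the serine tRNA of AGY codons, had ratios of 0.598 in WT (exact 95% interval 0.395 to 0.896) and 0.439 in AMPK KO (0.277 to 0.683). None of these 4 passed adjustment over all genes.

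Of the minus-strand tRNAs, MT-TC (cysteine) had 83.7 and 36.8 RPKM in WT DMSO+EGF and 33.6 and 8.5 RPKM in WT cordycepin+EGF, and 31.8 and 48.3 against 11.4 and 17.6 RPKM in AMPK KO. MT-TN (asparagine) had ratios per scaled library of 0.304 in WT and 0.71 in AMPK KO. MT-TE (glutamate) went from 13.6 and 11.5 to 1.98 and 4.59 RPKM in AMPK KO, and from 13.7 and 13.2 to 10.6 and 9.04 RPKM in WT. MT-TS1, the serine tRNA of UCN codons, did not follow: it had 10.3 and 13.2 RPKM without and 12.1 and 23.5 RPKM with cordycepin in WT, and 6.29 and 5.25 against 4.95 and 4.59 RPKM in AMPK KO. MT-TP (proline), by far the most abundant of the 12 with a mean of 509 RPKM, had 472 and 614 RPKM without and 501 and 466 RPKM with cordycepin in AMPK KO, where the groups overlapped. In WT it had 905 and 388 RPKM without and 519 and 248 RPKM with cordycepin, which overlapped too, with a ratio of reads per scaled library of 0.622 (exact 95% interval 0.579 to 0.667) against 0.915 (0.84 to 0.998) in AMPK KO. Counting error alone put the 95% interval of the ratio below 1 for 9 of 12 tRNAs in WT and for 10 of 12 in AMPK KO, and above 1 for 0 in both. Per mitochondrial mRNA read it lay below 1 for 8 of 12 in WT and 10 of 12 in AMPK KO, and above 1 for 1 in WT, MT-TS1 (1.04 to 2.65). These intervals leave out the spread between libraries, and the same count was not made over all genes.

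Because the amount of mitochondrial RNA varied between libraries, tRNA reads were also set against mitochondrial mRNA reads of the same library. Here the 11 tRNAs other than MT-TP were summed, since MT-TP holds most of the tRNA reads. That choice was made after the values had been seen. Per 100000 mRNA reads, the 11 tRNAs had 70.9 and 76.9 reads in WT DMSO+EGF and 31.4 and 45.6 in WT cordycepin+EGF. In AMPK KO they had 68.2 and 66.5 in DMSO+EGF and 22.7 and 27.8 in cordycepin+EGF. In DMSO without EGF they had 54.6 and 53.2 in WT and 77.2 and 69.4 in AMPK KO. The 4 libraries with cordycepin ranged from 22.7 to 45.6 and the 8 without from 53.2 to 77.2, with no overlap. With MT-TP in the sum the ranges were 126 to 135 and 166 to 229, also without overlap. For MT-TP alone they were 89.5 to 106 and 97.7 to 158, which overlapped. An exact permutation test of 2 against 2 libraries cannot give a two-sided p below 0.333.

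**Figure D2:**
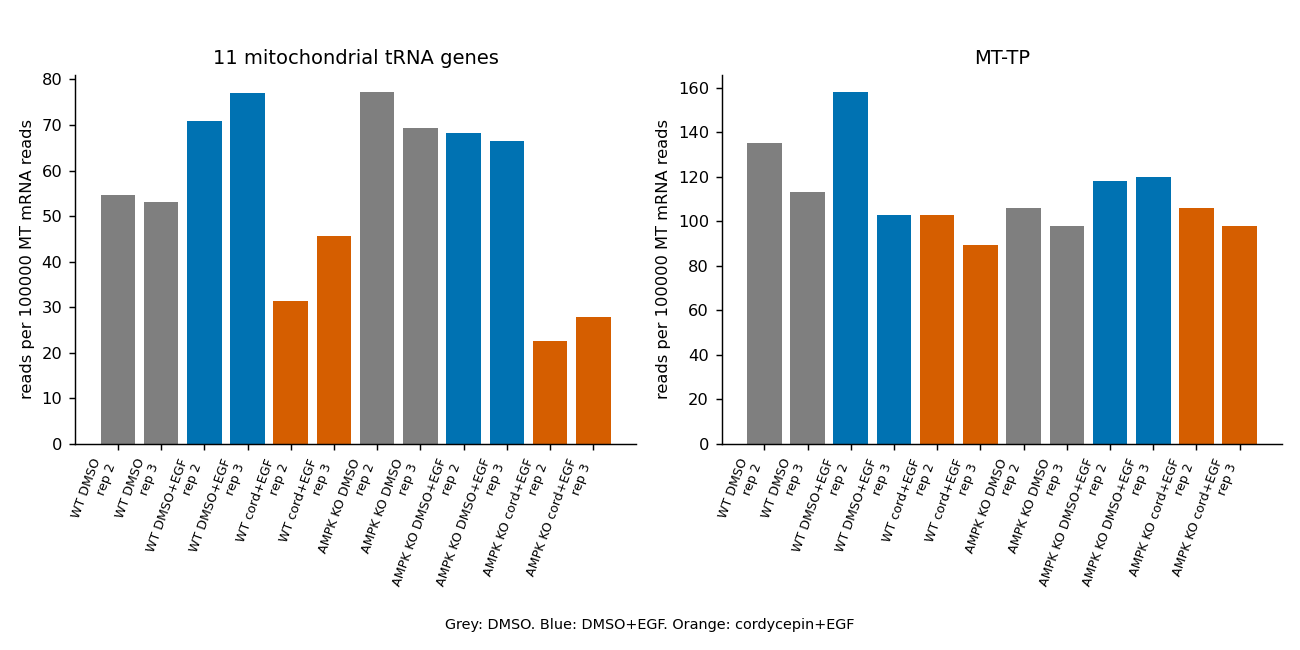
Reads in 11 mitochondrial tRNA genes (left) and in MT-TP (right) per 100000 reads in mitochondrial mRNAs, 1 bar per library, with DMSO in grey, DMSO+EGF in blue and cordycepin+EGF in orange. On the left the 4 orange bars (22.7 to 45.6) lie below the 8 others (53.2 to 77.2), and on the right the colours overlap.

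The plus-strand tRNAs hold more adenosine than the minus-strand ones, with 32.2% to 41.5% of bases against 18.8% to 30.3%. Their median log2 differences with cordycepin were -1.29 in WT and -1.73 in AMPK KO over 5 genes, against -0.68 and -1.25 over the 7 minus-strand genes. Across the 12 genes, which share libraries and differ in read number, Spearman's rho between adenosine share and log2 difference was -0.43 in WT and -0.35 in AMPK KO. Of the sequences printed above, MT-TR (41.5%) and MT-TD (41.2%) are the richest in adenosine and MT-TS1 (18.8%) the poorest. MT-TA, the member called, is the next poorest of them (21.7%).

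None of the 13 mitochondrial mRNAs passed the test with cordycepin in either line, at an adjusted or an unadjusted p below 0.05. Their log2 differences ran from -0.53 to -0.05 in WT and from -0.43 to 0.44 in AMPK KO. The sum of the 13 varied with the library, so each mRNA was also expressed as a percentage of that sum. MT-ND2, a complex I subunit, took 4.33% and 4.73% of mitochondrial mRNA in WT DMSO+EGF and 4.25% and 3.39% in WT cordycepin+EGF. In AMPK KO it took 4.94% and 5.40% without cordycepin and 3.50% and 3.47% with it. Its share in the 4 libraries with cordycepin (3.39% to 4.25%) did not overlap that in the 8 others (4.33% to 5.60%).

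MT-ATP8, a small subunit of the ATP synthase, moved the other way. It took 3.23% and 3.10% in WT DMSO+EGF and 3.69% and 3.73% in WT cordycepin+EGF. In AMPK KO it took 3.49% and 3.55% without cordycepin and 4.21% and 4.21% with it. Treated and untreated libraries with EGF did not overlap in either line, while AMPK KO DMSO replicate 3 (3.73%) lay among the treated values. MT-ATP6, read from the same transcript, took 9.75% and 10.1% in AMPK KO DMSO+EGF and 12.2% and 12.3% in AMPK KO cordycepin+EGF, but overlapped in WT (9.39% and 8.89% against 10.1% and 8.36%). MT-ND3 took 2.70% and 2.42% in AMPK KO without and 1.93% and 1.81% with cordycepin, and overlapped in WT (2.39% and 3.20% against 2.21% and 2.88%). In all, the shares of 10 of 13 mRNAs did not overlap between AMPK KO DMSO+EGF and cordycepin+EGF (4 higher, 6 lower), and those of 3 of 13 in WT, where MT-ND2 was lower and MT-ATP8 and MT-CO1 higher. The log2 share differences of the 10 ran from -0.57 (MT-ND2) to 0.3 (MT-ATP6), with -0.02 for MT-CO1. The same count was not made over all genes, and lack of overlap between 2 and 2 libraries gives an exact permutation p of 0.333. The 4 mRNAs described were singled out after their values had been seen, and shares of a sum cannot all move in 1 direction.

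**Figure D3:**
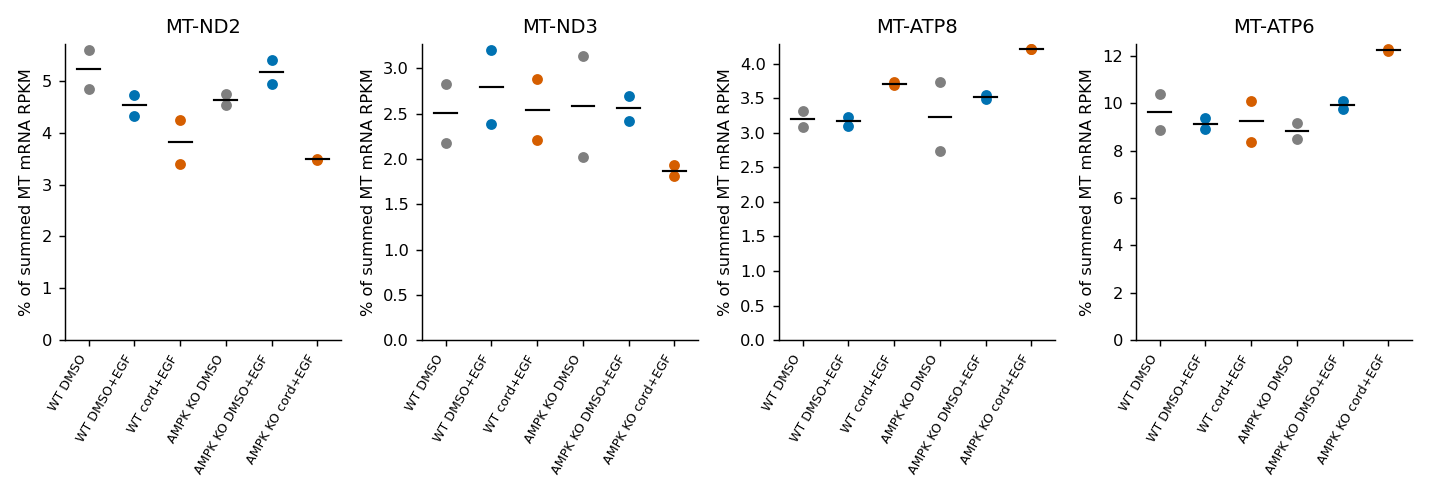
Share of summed mitochondrial mRNA RPKM (%) taken by MT-ND2, MT-ND3, MT-ATP8 and MT-ATP6 in each library (points) with the group mean (black bar), by line and treatment, in the colours grey for DMSO, blue for DMSO+EGF and orange for cordycepin+EGF. MT-ND2 is lowest in the 4 cordycepin libraries (3.39% to 4.25%), and MT-ATP8 reaches 4.21% with cordycepin in AMPK KO.

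The 3′ ends of these genes are shown because 6 of the 13 mRNA genes, as annotated, end in an incomplete stop codon that added adenosines complete. The last 30 bases of each annotated gene are given in the direction of the mRNA, with the last encoded codon or partial codon in capitals.
MT-ND2 (chrM:5482-5511, plus strand): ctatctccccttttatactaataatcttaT
MT-ND3 (chrM:10375-10404, plus strand): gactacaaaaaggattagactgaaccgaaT
MT-ATP8 (chrM:8543-8572, plus strand): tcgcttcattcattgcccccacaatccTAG
MT-ATP6 (chrM:9178-9207, plus strand): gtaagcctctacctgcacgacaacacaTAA
The annotated end of MT-ATP8 lies inside MT-ATP6, so it is not the end of an RNA, and the last base of MT-ATP6 is also the first of MT-CO3. The partial codon is T or TA in MT-ND1, MT-ND2, MT-CO3, MT-ND3, MT-ND4 and MT-CYB. With cordycepin these 6 had a median log2 difference of -0.35 in WT (range -0.53 to -0.27) and 0.02 in AMPK KO (range -0.43 to 0.27). The 7 annotated as ending on a whole codon had medians of -0.21 (range -0.38 to -0.05) and 0.12 (range -0.06 to 0.44). The ranges overlapped in both lines.

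The mitochondrial rRNAs are targets of the depletion step and were low, with means of 50.8 RPKM for MT-RNR1 (small ribosomal subunit) and 33.8 RPKM for MT-RNR2 (large subunit). MT-RNR1 had 12.2 and 43.8 RPKM in WT DMSO+EGF and 104 and 39.1 RPKM in WT cordycepin+EGF, which overlapped. MT-RNR2 had 7.46 and 22.7 RPKM in WT DMSO+EGF and 57.6 and 29.8 RPKM in WT cordycepin+EGF (log2 difference 1.67, limma adjusted p = 0.267). WT DMSO+EGF replicate 2 was the lowest of the 12 libraries for both genes. Without that library the difference of MT-RNR2 was 0.91. RNA left after depletion and RNA in the cell cannot be told apart here.

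None of the 84 nuclear subunits was called with cordycepin. At an unadjusted p below 0.05, 2 were higher and 4 lower in WT, and 7 were higher and 8 lower in AMPK KO. These were 7.14% and 17.9% of the subunits, against 16.0% and 21.8% of all genes. Complex medians lay between -0.05 and 0.03 in WT and between -0.28 and 0.04 in AMPK KO. The largest upward difference in both lines was of NDUFA4L2, a paralogue of the complex IV subunit NDUFA4. It had 1.45 and 1.78 RPKM in WT DMSO+EGF and 6.71 and 8.54 RPKM in WT cordycepin+EGF (log2 difference 1.97, SE 0.324, limma adjusted p = 0.177). In AMPK KO it had 2.45 and 1.83 RPKM without and 10.1 and 6.41 RPKM with cordycepin (log2 difference 1.75, SE 0.324, limma adjusted p = 0.0574). The 4 libraries with cordycepin lay above the 8 without, which reached 3.12 RPKM. Over 14 alternatives the adjusted p ran from 0.00688 to 0.249 in WT, with 2 calls, and from 0.00915 to 0.101 in AMPK KO, with 6 calls.

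Other low paralogues of complex IV pointed the same way. COX6B2, a form described in testis, had 0.668 and 0.605 RPKM in WT DMSO+EGF and 1.46 and 3.18 RPKM in WT cordycepin+EGF (log2 difference 1.27, limma adjusted p = 0.262). In AMPK KO it had 1.13 and 0.779 against 2.06 and 1.21 RPKM. COX7A1, the form of heart and skeletal muscle, had 4.44 and 5.19 against 7.87 and 10.1 RPKM in WT, and 3.95 and 3.83 against 9.67 and 5.41 RPKM in AMPK KO. Cordycepin+EGF and DMSO+EGF did not overlap for either gene in either line, but in AMPK KO the DMSO libraries, with 3.88 and 8.18 RPKM of COX7A1 and 1.05 and 1.68 RPKM of COX6B2, overlapped those with cordycepin. Of their common counterparts, COX6B1 had 148 and 125 against 127 and 153 RPKM in WT, which overlapped, and 137 and 151 against 99.9 and 116 RPKM in AMPK KO. COX7A2 had 30.3 and 31.2 against 27.4 and 31.3 RPKM in WT, which overlapped, and 31.6 and 27.2 against 21.9 and 27 RPKM in AMPK KO. The low paralogue of complex V, ATP5MGL, did not share the rise in WT. With 1 library left out its log2 difference ran from -0.108 to 0.06 in WT and from 0.027 to 0.372 in AMPK KO.

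Downward differences were smaller. In AMPK KO the largest downward difference among subunits was of ATP5MK, a small membrane subunit of the ATP synthase, from 149 and 147 to 86.2 and 107 RPKM (log2 difference -0.58, limma adjusted p = 0.202). ATP5F1B went from 352 and 343 to 215 and 273 RPKM (log2 difference -0.47, limma adjusted p = 0.202). SDHB, the iron-sulphur subunit of complex II, went from 43.7 and 42.8 to 27.4 and 32.2 RPKM, and all 4 complex II genes had negative differences in AMPK KO (-0.49 to -0.19) and positive ones in WT (0.011 to 0.155). In WT the largest downward difference was of NDUFS4, an accessory subunit of complex I, from 11.4 and 15 to 6.06 and 8.34 RPKM (log2 difference -0.80, limma adjusted p = 0.298). The test of the cordycepin effect in AMPK KO minus that in WT called 0 of 111 members, where 0% of all genes were called, with 9 members (8.11%, against 21.4% of all genes) at an unadjusted p below 0.05. With voom on the recovered reads 5 members were called in this test, and 2252 of all genes (10.2%).

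**Figure D4:**
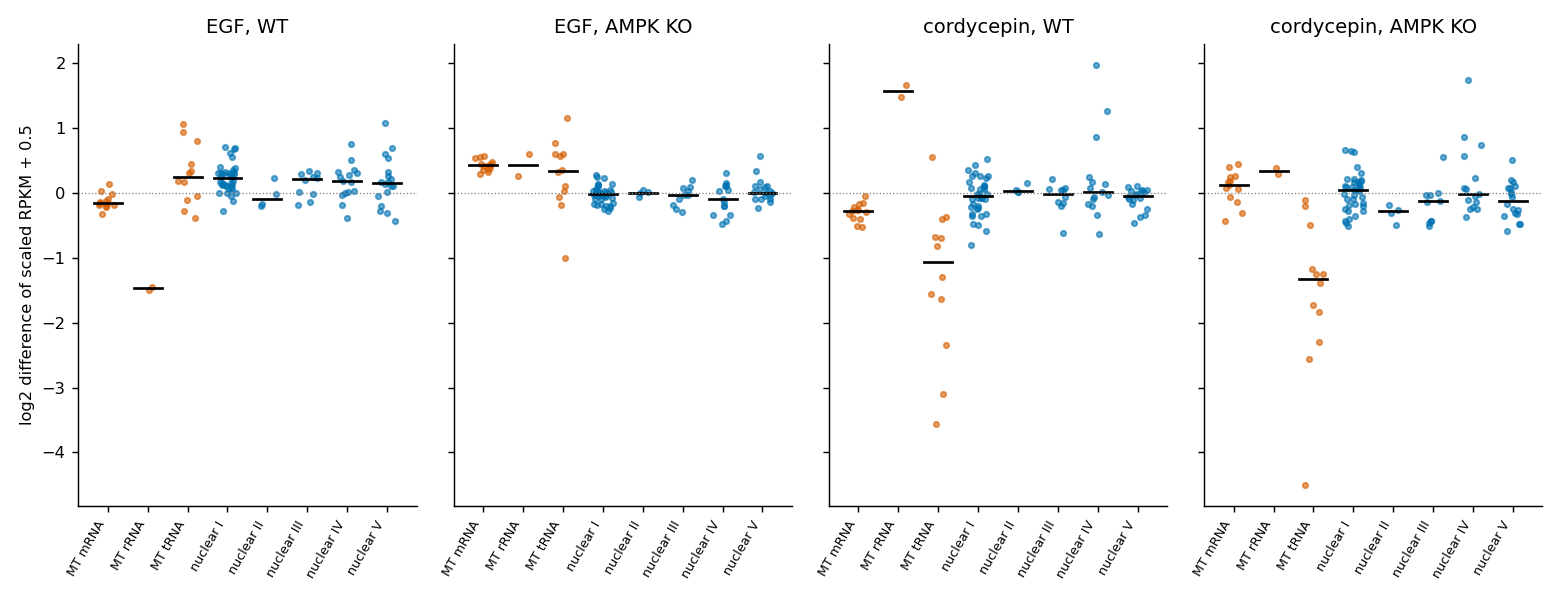
Difference in log2(scaled RPKM + 0.5) for each member (points) with the median of each class (black bar), for EGF (DMSO+EGF minus DMSO) and cordycepin (cordycepin+EGF minus DMSO+EGF) in each line. Mitochondrial classes are orange and nuclear subunits of complexes I to V blue. The tRNAs have medians of -1.06 and -1.32 with cordycepin, while the medians of the nuclear complexes lie between -0.28 and 0.23 in the 4 panels.

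EGF alone was asked about by comparing DMSO+EGF with DMSO. No member was called in WT, where 0.0227% of all genes were, or in AMPK KO, where 0.0136% of all genes were. At an unadjusted p below 0.05, 9 members passed in WT (8.11%, against 9.72% of all genes) and 1 in AMPK KO (0.901%, against 2.42%). In WT, 64 of 84 nuclear subunits had a positive difference (median 0.17), against 52.3% of all genes (median 0.02). With equal RPKM totals over nuclear genes the medians were 0.05 and -0.097. In AMPK KO 38 of 84 did (median -0.01). Complex I had the largest WT median, 0.23, with 32 of 37 positive.

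Of subunits with a mean of at least 1 RPKM and no overlap, the largest upward and the largest downward difference with EGF in WT were those of COX7A1, with 1.5 and 4.24 RPKM in DMSO and 4.44 and 5.19 RPKM in DMSO+EGF (log2 difference 0.757), and of ATP5PF, coupling factor 6 of the ATP synthase, with 28.7 and 31.5 RPKM in DMSO and 25.2 and 20.2 RPKM in DMSO+EGF (log2 difference -0.435). In AMPK KO ATP5PF had 34.6 and 23.5 against 35.1 and 36.7 RPKM. The mitochondrial mRNAs had a median difference of -0.16 in WT, which turned to 0.33 without WT DMSO replicate 3 and to 0.14 without WT DMSO+EGF replicate 3, and of 0.43 in AMPK KO, where all 13 were positive and 0 of 13 had an unadjusted p below 0.05. With 1 library left out the AMPK KO median ran from 0.234 to 0.617. MT-CO1 shows the spread behind these medians, with 7411 and 9931 RPKM in WT DMSO, 9488 and 6285 RPKM in WT DMSO+EGF, 7222 and 4833 RPKM in AMPK KO DMSO and 6451 and 8060 RPKM in AMPK KO DMSO+EGF. Within each line the treatments overlapped for MT-CO1, but in AMPK KO they did not for every mRNA. MT-ND4, for example, had 1541 and 1468 RPKM in AMPK KO DMSO and 1829 and 2358 RPKM in AMPK KO DMSO+EGF. The test of the EGF effect in AMPK KO minus that in WT called 0 of 111 members, where 0% of all genes were called, with 9 members (8.11%, against 8.69% of all genes) at an unadjusted p below 0.05, and voom on the recovered reads also called 0.

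The lines were compared at each treatment. No member was called in DMSO, where 0.44% of all genes were, in DMSO+EGF, where 1.74% were, or in cordycepin+EGF, where 0.118% were. At an unadjusted p below 0.05, 17 members passed in DMSO (15.3%, against 21.3% of all genes), 14 in DMSO+EGF (12.6%, against 22.5%) and 9 in cordycepin+EGF (8.11%, against 13.7%). NDUFS1, the largest subunit of complex I, had 11.5 and 14.8 RPKM in WT DMSO and 22.2 and 27.3 RPKM in AMPK KO DMSO (log2 difference 0.87, SE 0.194, limma adjusted p = 0.073). In DMSO+EGF it had 11.7 and 15 RPKM in WT and 24.1 and 23.1 RPKM in AMPK KO (log2 difference 0.82, SE 0.194, limma adjusted p = 0.063). In cordycepin+EGF it had 13.2 and 19.4 RPKM in WT and 16.5 and 17.7 RPKM in AMPK KO, which overlapped. The DMSO+EGF difference of NDUFS1 was called when replicate number was a block over all libraries, where 1.41% of all genes were. It was also called with array weights (22.8% of all genes), voom on recovered reads (12%) and only the groups compared (10%). In DMSO the block over all libraries (0.53% of all genes) and voom (8.17%) called both NDUFS1 and UQCRC1. A block by line also called NDUFS1 in DMSO+EGF, but as coded it compares the lines at replicate 2 and not at their means.

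UQCRC1, a core subunit of complex III, had 26.4 and 26.7 RPKM in WT DMSO and 45.9 and 60.4 RPKM in AMPK KO DMSO (log2 difference 0.95, SE 0.206, limma adjusted p = 0.0702). In DMSO+EGF it had 30.2 and 39.2 against 44.9 and 43 RPKM, and in cordycepin+EGF 28.2 and 42.6 against 27.8 and 33.9 RPKM. COX7A2L, which takes part in joining complexes III and IV, had 8.7 and 4.34 RPKM in WT DMSO, 6.2 and 6.11 RPKM in WT DMSO+EGF, 3.21 and 3.13 RPKM in AMPK KO DMSO and 3.88 and 3.29 RPKM in AMPK KO DMSO+EGF. With cordycepin+EGF the order was the other way, with 4.37 and 3.07 RPKM in WT and 4.97 and 7.43 RPKM in AMPK KO. Its log2 differences between the lines were -0.88, -0.69 and 0.68 in the 3 treatments, and none passed adjustment. NDUFC2, an accessory subunit of complex I, had the largest downward difference in DMSO+EGF, with 21 and 27.4 RPKM in WT and 13.7 and 9.85 RPKM in AMPK KO (log2 difference -0.995, limma adjusted p = 0.136). SDHB had the largest downward difference in cordycepin+EGF, with 38.2 and 53.2 RPKM in WT and 27.4 and 32.2 RPKM in AMPK KO (log2 difference -0.58, limma adjusted p = 0.259).

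**Figure D5:**
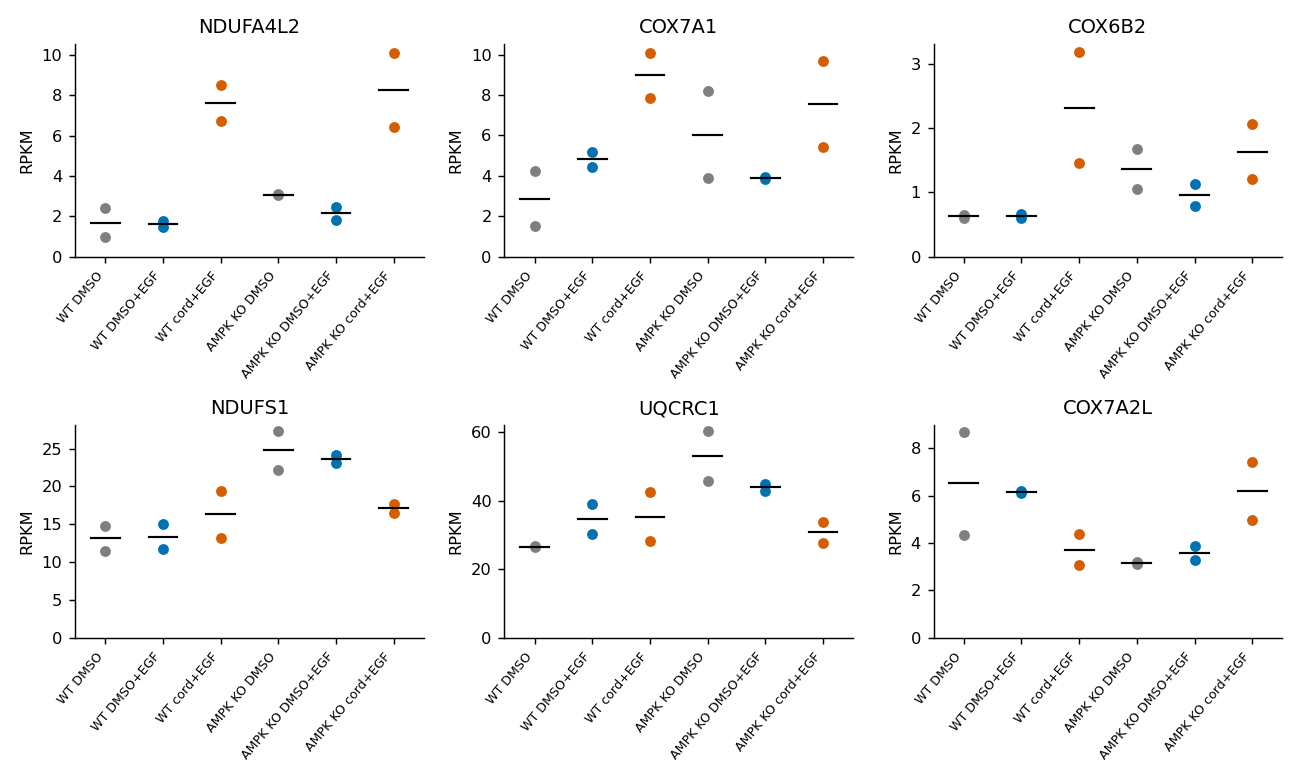
RPKM of 6 nuclear subunits in each library (points) with the group mean (black bar), by line and treatment, with DMSO in grey, DMSO+EGF in blue and cordycepin+EGF in orange. NDUFA4L2 lies between 6.41 and 10.1 RPKM with cordycepin and at or below 3.12 RPKM without it, and NDUFS1 is higher in AMPK KO than in WT in DMSO and DMSO+EGF.

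As a list, the 84 nuclear subunits had median differences between the lines of 0.17 in DMSO, -0.07 in DMSO+EGF and -0.12 in cordycepin+EGF, beside medians of all genes of 0.01, -0.01 and 0.01. With equal RPKM totals over nuclear genes, which moved the median of all genes by up to 0.154, the DMSO value became -0.003 beside -0.136 for all genes, and the cordycepin+EGF value turned to 0.05 beside 0.169 for all genes. The 13 mitochondrial mRNAs had medians of -0.55, 0.07 and 0.38, and none of the 13 had an unadjusted p below 0.05. The DMSO value became -0.08 without WT DMSO replicate 3, the library with the most mitochondrial mRNA and the fewest reads. Without that library 11 members were called between the lines in DMSO, among 3065 of all genes.

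Promoters are shown for NDUFS1 and UQCRC1, the nuclear members with the smallest p between the lines in DMSO. The sequences are from RefSeq (GRCh38.p14), with 250 bases before and 50 after the gene start, in the direction of the gene. Capitals mark matches on either strand to the ETS motif CCGGAAG, the core of the NRF1 motif CGCATGCG, the YY1 motif AAGATGGC and the SP1 motif GGGCGG.
NDUFS1 (chr2:206159395-206159694, minus strand): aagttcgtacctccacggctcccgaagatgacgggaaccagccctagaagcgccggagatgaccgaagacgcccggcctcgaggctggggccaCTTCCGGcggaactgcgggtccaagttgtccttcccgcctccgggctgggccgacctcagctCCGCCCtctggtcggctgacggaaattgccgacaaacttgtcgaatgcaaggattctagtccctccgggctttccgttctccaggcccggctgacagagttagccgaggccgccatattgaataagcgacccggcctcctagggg
UQCRC1 (chr3:48609597-48609896, minus strand): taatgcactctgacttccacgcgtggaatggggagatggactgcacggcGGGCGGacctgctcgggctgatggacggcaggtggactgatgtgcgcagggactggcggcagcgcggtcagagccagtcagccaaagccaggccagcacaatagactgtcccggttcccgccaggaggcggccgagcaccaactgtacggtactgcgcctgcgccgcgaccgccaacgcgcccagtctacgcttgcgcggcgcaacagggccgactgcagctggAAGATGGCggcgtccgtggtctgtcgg
A promoter was matched for 66 of the 84 nuclear subunits. The ETS motif was in 30.3% of these 66 and in 10.3% of all 35116 promoters, and the NRF1 core in 15.2% and 2.02%. The YY1 motif was in 16.7% and 2.89%, and the SP1 motif in 62.1% and 45.0%. The 66 were held to a single promoter per gene, while the 35116 were not held to that, to protein-coding genes or to genes expressed here. The shares are therefore of unlike sets. A match is only a run of letters, and binding was not measured.

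In 4 related lists, calls were made only between the lines in DMSO+EGF, where 1.74% of all genes were called. Of 59 assembly factors and 13 electron carriers and nucleotide exchange proteins tested, none was called in any of the 7 comparisons or 2 interaction tests. Of 53 genes for mitochondrial gene expression, 3 were called, all between the lines in DMSO+EGF. MTRF1L, a release factor of the mitochondrial ribosome, was higher in AMPK KO (15.1 and 15.5 against 8.73 and 7.44 RPKM, limma adjusted p = 0.0315). FASTKD5, which takes part in processing mitochondrial precursor RNA, was higher (14.1 and 14.4 against 10.5 and 9.77 RPKM, limma adjusted p = 0.0499), and NSUN4, an rRNA methyltransferase, was lower (3.34 and 3.06 against 6.67 and 7.04 RPKM, limma adjusted p = 0.0499). Of 77 mitoribosomal protein genes, 2 were called in the same comparison, MRPL18 (59.9 and 57.7 against 38.4 and 36.9 RPKM) and MRPS2 (10.2 and 9.29 against 23.3 and 18.1 RPKM). With cordycepin the median differences of these 4 lists lay between -0.05 and 0.12 in WT and between -0.255 and -0.02 in AMPK KO.

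Nuclear pseudogenes that are copies of mitochondrial genes can share reads with chromosome M, and took 0.152% to 0.406% of reads, against 1.97% to 4.52% for chromosome M. Of 53 such copies tested 1 was called, MTND5P28, with 0.227 and 0.273 RPKM in AMPK KO DMSO+EGF and 1.37 and 1.19 RPKM in AMPK KO cordycepin+EGF (log2 difference 1.28, SE 0.206, limma adjusted p = 0.0467). In WT it had 0.346 and 0.305 against 1.28 and 1.64 RPKM. Of the libraries without cordycepin only AMPK KO DMSO replicate 3 (0.8 RPKM) lay above 0.5 RPKM. Its mean thus met the filter of 0.5 RPKM only through the cordycepin libraries, and the filter favoured a rise. The cordycepin libraries lay above those without in both lines, while its counterpart MT-ND5 had log2 differences of -0.38 in WT and -0.06 in AMPK KO. Of 53 pseudogenes of nuclear subunits tested, none was called. With cordycepin the nuclear copies of mitochondrial genes had median differences of 0.351 in WT (39 of 53 positive) and 0.329 in AMPK KO (41 of 53). The pseudogenes of nuclear subunits had 0.088 (28 of 53) and 0.387 (36 of 53). Over all genes 53.5% and 55.1% were positive.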

How the data were processed

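Stranded, ribosomal RNA-depleted libraries were sequenced as paired reads of 150 bases. Per the labels and the study's methods, the authors mapped reads to GRCh38.p13 and used Rsubread for gene counts, from which the deposited RPKM values were made. FastQC is named in the submitters' processing notes. The gene annotation, the strand setting and the rule for the genes kept were not given in the sources used here. The authors discarded replicate 1 of each condition, which was not analysed here. Left out were 2 rows of the table without a gene name. Symbols, positions and exon lengths came from GENCODE release 44 (GRCh38), which matched 26029 of 26058 genes.

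Whole reads were recovered for 25082 genes (96.25%, tolerance 0.05 of a read) and for 110 of 111 members. Each library was divided by its upper quartile and tested as log2(scaled RPKM + 0.5), so changes of low genes are understated. A mean RPKM of 0.5 or more was required, which left 22067 genes for 1 fit over the 12 libraries in limma 3.58.1 (R 4.3.3; group means, eBayes with trend, 6 residual degrees of freedom), two-sided, with Benjamini-Hochberg adjustment in each of 7 comparisons and 2 interaction tests. SE is the moderated standard error. Exact 95% intervals of read ratios are conditional binomial (scipy 1.17.1). PCR reads without molecular identifiers are not independent, so intervals cover counting error only. The fit was tested on simulated data.

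Groups came from the sample labels. The study's supplement calls the replicates biological, without naming separate cultures, and p-values measure the spread between these libraries. Between replicate differences of 3 pairs of WT groups r ran from 0.136 to 0.314. For 3 pairs of AMPK KO groups it ran from -0.122 to 0.031. For 9 pairs of a WT and an AMPK KO group it ran from -0.081 to 0.322. The WT values lie within that last range, so they do not show that replicate numbers tie WT libraries together. Members, lists and named genes were chosen with earlier results of these data known. Named genes were the mitochondrial mRNAs and rRNAs, members called, the highest and lowest nuclear subunit of each complex, the nuclear subunits with the largest rise and fall without overlap in each comparison, tissue-restricted paralogues with their counterparts, PRKAA1, PRKAA2 and called genes of related lists. The other tRNAs, and MT-TP, MT-ND2, MT-ND3, MT-ATP8 and MT-ATP6 as shares, were described after their values had been seen.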

Additional observations from a re-analysis of the deposited data

How the results depend on the processing

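Members called depended on the fit. With cordycepin in AMPK KO the count of 1 became 3 (2.7% of members) with a pseudocount of 1 (0.689% of all genes) and without the filter (0.898%). It also became 3 with equal RPKM totals over nuclear genes (0.825%) and with the upper quartile of nuclear protein-coding genes (1.08%). Array weights gave 5 (4.5% of members, against 5.41% of all genes). Voom on recovered reads gave 2 (1.8%, against 4.73%), and only the groups compared gave 0 (0% of all genes). With cordycepin in WT the count of 0 became 1 with array weights (0.901% of members, against 0.0725% of all genes) and 3 with voom (2.7%, against 3.27%). In the test of the cordycepin effect between lines it became 2 and 5 (1.8% and 4.5%, against 6.6% and 10.2% of all genes). Between the lines in DMSO it became 6 with voom (5.41%, against 8.17% of all genes). In DMSO+EGF it became 6 with only the groups compared, 14 with array weights and 7 with voom, beside 2215, 5041 and 2638 of all 22067 genes (10%, 22.8% and 12%, against 5.41%, 12.6% and 6.31% of members). A replicate block over all libraries gave 2 members between the lines in DMSO (1.8%, against 0.53% of all genes) and 1 in DMSO+EGF (0.901%, against 1.41%). A replicate block by line gave 0 with cordycepin in AMPK KO (0.0816% of all genes) and 1 between the lines in DMSO+EGF (0.901% of members, against 0.589% of all genes). It moved medians between the lines in DMSO+EGF to -0.414 for tRNAs and -0.038 for nuclear subunits. As coded, it compares the lines at replicate 2 and not at their means, so these values between lines are of another quantity. The blocks changed no other count of members called. Other causes of the changed counts were not tested. Where a fit without 1 library called the most members of its comparison, a larger share of all genes than of members was called. Each such fit held 1 WT DMSO library. Leaving out 1 library at a time gave 0 to 6 with cordycepin in AMPK KO, 0 to 11 between the lines in DMSO, 0 to 2 in DMSO+EGF, 0 to 2 with EGF in WT and 0 to 3 in the cordycepin test between lines. The highest counts came without WT DMSO replicate 2 or 3, for cordycepin in both cases, with 1360 and 1351 of all genes called in AMPK KO. The nuclear subunit median became 0.051 (EGF in WT), 0.122 (cordycepin in AMPK KO), -0.003 (lines in DMSO) and 0.054 (lines in cordycepin+EGF) with equal RPKM totals over nuclear genes. With the upper quartile of nuclear protein-coding genes it became 0.069 with cordycepin in AMPK KO and -0.116 between the lines in DMSO+EGF. The ratio of tRNA to mRNA reads with cordycepin, as a mean of libraries, was 0.521 in WT and 0.375 in AMPK KO, became 0.659 and 0.682 with MT-TP included, and ran from 0.424 to 0.617 and from 0.337 to 0.412 with 1 library left out.

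With 1 library left out, the mitochondrial mRNA median ran from -0.701 to 0.143 (cordycepin in WT) and from -0.042 to 0.29 (cordycepin in AMPK KO). Between the lines it ran from -0.214 to 0.409 in DMSO+EGF and from 0.015 to 0.869 in cordycepin+EGF. The tRNA median ran from -0.211 to 0.38 (EGF in WT), -1.39 to -0.875 (cordycepin in WT), -1.714 to -0.991 (cordycepin in AMPK KO) and -0.709 to 0.145 (lines in cordycepin+EGF). The nuclear median ran from -0.145 to 0.051 (EGF in AMPK KO), -0.148 to 0.099 (cordycepin in WT) and -0.08 to -0.03 (lines in DMSO+EGF). Several medians of the nuclear subunits changed sign with equal RPKM totals over nuclear genes, as given above. The tRNA medians and the alternatives for the ratio of tRNA to mRNA reads were added after seeing the data. Reads in most tRNAs were few, which limits their precision.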
